A study of Mus musculus with 6 samples.

Results

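The genes described here are those of the integrated stress response and of the enzymes that charge tRNA, a set of 42 genes taken by name from a table of 13809 genes. They were split by role into 11 factors of the ATF4 axis, 11 amino acid transporters and synthesis enzymes, and 20 cytosolic aminoacyl-tRNA synthetases. All 42 were in the table and all 42 passed the filter on low counts. The hearts came from mouse embryos at embryonic day (E) 18.5, and 3 libraries were made from WT and 3 from *Pkm1*-KO embryos. *Pkm1* is the splice form of pyruvate kinase that adult heart and muscle use in the last step of glycolysis. The KO allele was made with CRISPR/Cas9 in BDF1 zygotes as a short deletion in the exon that only *Pkm1* contains, and homozygous embryos were obtained by crossing heterozygotes. It is a germline deletion present in every cell of the embryo, not in cardiomyocytes alone, and the KO pups die soon after birth. The tissue is heart in the labels and ventricle in the study's text, and neither says whether a library held 1 heart or several or how many founders the line had.

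Library totals ran from 15567624 to 19875546 counts, and 3 counts correspond to 0.153 to 0.197 CPM (counts scaled to the size of each library). *Pkm*, which holds both splice forms, fell from 1318 ± 41.1 CPM in WT to 542 ± 10.1 CPM in KO (SD, n = 3 libraries each). The lowest WT library was 2.36-fold above the highest KO library. Cardiomyocyte markers were abundant in all libraries, with a summed level of 100562 to 111609 CPM over 6 genes. The WT libraries are called a, b and c and the KO libraries a, b and c, in the order of the table's columns, which carry no replicate numbers. WT library c stood further from the other WT libraries than any other pair of one genotype did. All 3 WT libraries held counts of Y-linked genes (3310 to 4840) and few of *Xist* (73 to 102), whereas the KO libraries held 0 Y-linked counts and 36933 to 42574 of *Xist*, so genotype and the sex of the embryos cannot be told apart. None of the 42 genes lies on X or Y. In bulk tissue, fewer cells of a type and less RNA per cell cannot be told apart either.

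The integrated stress response begins when a kinase such as PERK, GCN2, PKR or HRI phosphorylates the translation factor eIF2. General translation then slows, while the mRNA of the transcription factor ATF4 is translated more. ATF4, paired with a C/EBP protein, switches on genes for amino acid uptake and synthesis, for tRNA charging, and for feedback factors that end the response or lead to cell death. In heart and muscle the response is known to follow mitochondrial defects and amino acid shortage. Because ATF4 is controlled largely through its translation, the level of its mRNA is not a measure of its protein.

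Across the 42 genes, the change was not in one direction. In KO hearts 10 genes were higher, 6 were lower, and 26 did not pass an adjusted p of 0.05 (the quasi-likelihood test of edgeR, adjusted by the Benjamini-Hochberg method over 13804 genes and called the edgeR adjusted p from here on). Of all genes tested, 14.6% were higher and 15.7% lower by the same rule, and 30.3% passed it in either direction. The median log2 fold change of the 42 genes (KO over WT) was 0.07, beside 0.00172 over all genes. In 21 of the 42 genes the WT and KO libraries did not overlap, a property of 42.4% of all genes. A change of at least 1.5-fold that also passed the test was seen in 5 of the 42 genes (*Chac1*, *Trib3*, *Slc7a11*, *Cebpb* and *Ppp1r15a*), beside 6.19% of all genes. Of these, 2 were higher and 3 lower, beside 2.99% and 3.2% of all genes. As shares of the 42 genes these were 23.8% higher, 14.3% lower and 11.9% past 1.5-fold. With so few genes, nothing is read from the distance of these shares to those of the table. Positions below are of the mouse build GRCm38 (mm10), from the GENCODE annotation.

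**Figure D1:**
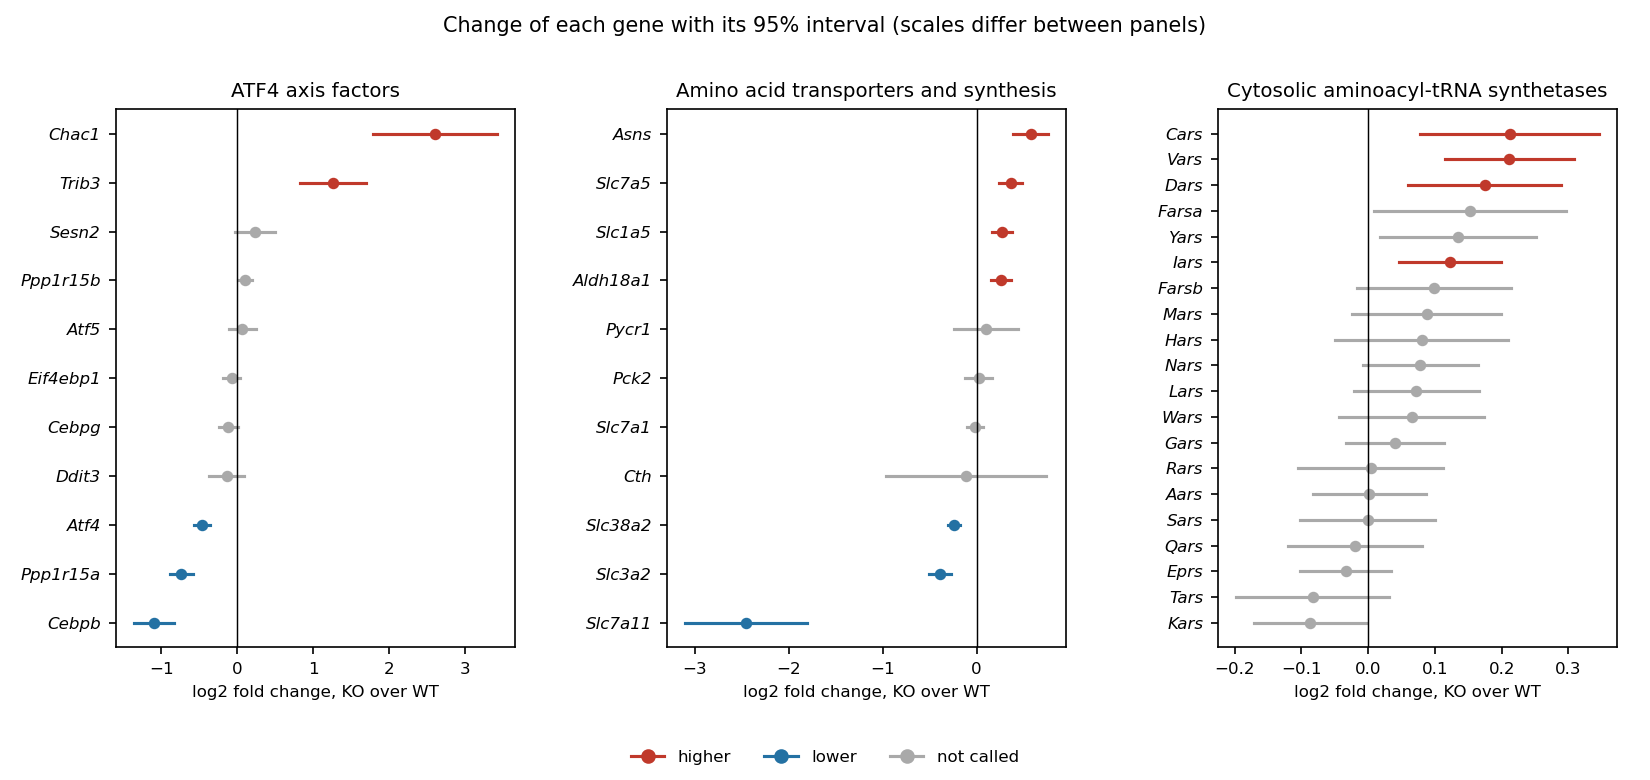
Log2 fold change (KO over WT, horizontal axis) of the 42 genes, grouped by role, with 95% confidence intervals as bars and the test's call as colour. Scales differ between the panels. The ATF4 axis and the amino acid genes spread to both sides of 0, from -2.45 (*Slc7a11*) to 2.61 (*Chac1*), while the synthetases lie between -0.09 and 0.21.

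Promoters that hold the letters of an ATF4 element are shown first, since members with the same letters moved in opposite directions. The windows run from 250 bases before to 50 bases after the gene start in RefSeq (GRCm38.p6), and 30 of the 42 genes had one. The core of the composite C/EBP-ATF element was searched as TTNCATCA, on both strands (TGATGNAA on the other). It was found in 11 of the 30 genes (36.7%), beside 301 of 10827 genes of the count table with a window (2.78%). By role, 2 of 9 ATF4 axis factors, 4 of 8 amino acid genes and 5 of 13 synthetases held it. Restricted to the bases before the start, 8 of 30 genes held it (26.7%), beside 2.45% of genes of the table. The members were picked by name as genes of the ATF4 response, so these shares are not a finding from these hearts. *Chac1* and *Slc7a11* are shown over the whole 250 bases before the start because they had the largest rise and the largest fall of the 42 genes. Sequences are written 5′ to 3′ along the gene's strand, with the core in capitals.
Chac1, chr2:119350992-119351241, plus strand: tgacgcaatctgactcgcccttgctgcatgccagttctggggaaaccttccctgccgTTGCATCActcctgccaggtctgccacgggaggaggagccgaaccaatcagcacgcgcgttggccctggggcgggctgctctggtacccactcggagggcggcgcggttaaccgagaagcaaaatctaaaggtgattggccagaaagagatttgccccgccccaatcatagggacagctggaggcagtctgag
Slc7a11, chr3:50443614-50443863, minus strand: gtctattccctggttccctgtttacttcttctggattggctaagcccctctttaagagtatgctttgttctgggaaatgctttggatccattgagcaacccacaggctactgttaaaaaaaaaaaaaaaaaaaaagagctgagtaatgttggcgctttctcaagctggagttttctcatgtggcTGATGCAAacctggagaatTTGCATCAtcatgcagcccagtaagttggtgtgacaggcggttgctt

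*Chac1* held 1 core, 193 bases before its start, and *Slc7a11* held 2, one on each strand, 66 and 47 bases before its start. The same letters therefore stood in the promoter of a gene that rose in KO hearts and of one that fell. The next 3 sequences belong to the other members with a core that were called, all 3 higher in KO. Those of *Trib3* and *Iars* lie after the annotated start, in the first bases of the transcript.
Trib3, chr2:152344028-152344057, minus strand: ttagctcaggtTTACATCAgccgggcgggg
Asns, chr6:7693210-7693252, minus strand: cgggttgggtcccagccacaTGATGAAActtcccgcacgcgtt
Iars, chr13:49682126-49682155, plus strand: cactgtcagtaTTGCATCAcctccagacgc

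The core also stood in 6 members that did not pass the test, which are shown for comparison with those above. *Aars* held another core after its start, and the core shown for *Yars* also lies after the start. *Pck2* and *Pycr1* encode enzymes of amino acid and glucose metabolism and the others encode synthetases.
Pck2, chr14:55540143-55540190, plus strand: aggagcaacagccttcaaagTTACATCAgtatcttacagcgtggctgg
Pycr1, chr11:120643824-120643871, minus strand: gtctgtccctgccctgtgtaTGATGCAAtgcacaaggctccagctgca
Aars, chr8:111033710-111033757, plus strand: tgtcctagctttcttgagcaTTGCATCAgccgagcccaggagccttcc
Gars, chr6:55037951-55037998, plus strand: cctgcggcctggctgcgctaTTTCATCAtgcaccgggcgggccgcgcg
Tars, chr15:11399659-11399693, minus strand: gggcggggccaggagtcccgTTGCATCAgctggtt
Yars, chr4:129189895-129189924, plus strand: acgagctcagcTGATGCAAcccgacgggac
Of the 11 members with a core, 4 were higher, 1 was lower and 6 were not called, with a median log2 fold change of 0.10. Of the 19 members with a window and no core in it, 2 were higher, 5 were lower and 12 were not called, with a median of -0.02. Bases outside the windows were not searched. These counts are a description, and the difference between them was not tested. Beside them, 14.6% of all genes were higher and 15.7% lower. The members without a window are in neither count. Of these, *Slc7a5*, *Slc1a5*, *Vars* and *Cars* were higher, while the members called lower all had a window.

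A CRE, the palindrome TGACGTCA bound by CREB and related factors, was found in 1 of the 30 genes with a window, *Ppp1r15a*, beside 3.45% of the genes of the table. It stood 12 bases before the start.
Ppp1r15a, chr7:45526269-45526300, minus strand: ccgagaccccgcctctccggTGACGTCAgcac
The CCAAT box, bound by the trimeric factor NFY, was found in 17 of the 30 genes (56.7%), beside 42.6% of the genes of the table, counted on both strands. It overlapped neither of the other motifs' letters. *Atf4* held 2 CCAAT boxes and no core, and *Chac1* held 3. A match of letters does not show that a factor was bound in these hearts.

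Among the ATF4 axis factors, 2 genes were higher (*Chac1* and *Trib3*), 3 were lower (*Atf4*, *Cebpb* and *Ppp1r15a*) and 6 were not called in KO hearts, beside 14.6% of all genes higher and 15.7% lower. The median log2 fold change was -0.07. The summed level of the 11 genes was 375 to 420 CPM in the WT libraries and 343 to 356 CPM in the KO libraries. The central factor, 1 of its C/EBP partners and the phosphatase subunit GADD34 were thus lower at the mRNA level, and *Chac1* and *Trib3* were higher. With WT library c left out, the counts were again 2 higher and 3 lower.

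*Atf4* (chr15:80255184-80257541, plus strand) encodes the transcription factor itself. Its level was 99.8, 101 and 113 CPM in WT libraries a to c and 78.7, 70.5 and 78.0 CPM in KO libraries a to c. All 3 KO libraries were below all 3 WT libraries, with a log2 fold change of -0.46 (SE 0.0505, edgeR adjusted p = 6.95e-08), which is 1.38-fold lower. *Cebpb* (chr2:167688915-167690418, plus strand) encodes C/EBPβ, which can pair with ATF4. It stood at 12.9, 12.2 and 18.2 CPM in WT and 6.94, 6.19 and 6.87 CPM in KO. WT library c was the highest of the 6, and even the lowest WT library was above all KO libraries. On the log2 scale the change was -1.10 (SE 0.129, edgeR adjusted p = 2.46e-07) and -0.91 without WT library c. *Cebpb* shares 312 exon bases with *Tmem189* on the opposite strand, and whether reads were counted by strand is not given in the sources used here. *Cebpg*, the other C/EBP partner among the members, was not called (log2 fold change -0.11, 95% confidence interval -0.24 to 0.01).

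*Ppp1r15a* (chr7:45522916-45526268, minus strand) encodes GADD34, the inducible subunit of the phosphatase that removes phosphate from eIF2. Its level was 27.0, 25.0 and 27.6 CPM in WT and 15.6, 15.5 and 16.6 CPM in KO, groups far apart for their spread. Its log2 fold change was -0.73 (SE 0.0748, edgeR adjusted p = 1.94e-08). *Ppp1r15b* encodes the constitutive subunit of the same phosphatase. The WT mean was 77.0 ± 2.22 CPM and the KO mean 83.2 ± 2.25 CPM (SD, n = 3), with no overlap, but the gene was not called (log2 fold change 0.11, edgeR adjusted p = 0.0625). With upper-quartile scaling its adjusted p was 0.0295 and with edgeR's exact test 0.0487, while the other 13 alternatives did not call it, up to 0.145 with DESeq2 and 0.211 without KO library a.

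*Chac1* (chr2:119351229-119354381, plus strand) encodes an enzyme that breaks down glutathione and is among the most strongly induced targets of ATF4. It was near the lower limit of what these libraries can measure, with 5 counts in each of the 3 WT libraries and 46, 17 and 33 counts in KO libraries a to c. As a level this was 0.290, 0.255 and 0.329 CPM in WT and 2.44, 1.07 and 1.77 CPM in KO. Every KO library was above every WT library, and the KO libraries themselves ranged widely. The log2 fold change was 2.61 (SE 0.396, 95% confidence interval 1.79 to 3.42, edgeR adjusted p = 1.24e-05). *Trib3* (chr2:152337422-152344032, minus strand) encodes a pseudokinase that ATF4 and CHOP induce and that restrains them in turn. Its level was 2.20, 1.68 and 1.18 CPM in WT and 4.13, 3.54 and 4.56 CPM in KO, from 18 to 38 counts and 56 to 85 counts. The groups did not overlap, and the log2 fold change was 1.26 (SE 0.212, edgeR adjusted p = 5.03e-05). In both genes the rise rested on few counts compared with the other members of the axis.

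*Ddit3* encodes CHOP, the factor that links a prolonged response to cell death. Its level was 9.32, 8.83 and 9.00 CPM in WT and 8.74, 7.20 and 8.64 CPM in KO. The groups did not overlap, but WT library b and KO library a were nearly level, and the gene was not called (log2 fold change -0.14, 95% confidence interval -0.37 to 0.09, edgeR adjusted p = 0.387). *Ddit3* shares 68 exon bases with *Mars* on the opposite strand. *Atf5*, a factor related to ATF4 and translated by the same mechanism, had a log2 fold change of 0.07 (95% confidence interval -0.11 to 0.25). *Sesn2*, an inhibitor of mTORC1, had 0.24 (edgeR adjusted p = 0.164). *Eif4ebp1*, an inhibitor of cap-dependent translation, had -0.07 (edgeR adjusted p = 0.333). None of these 4 genes was called.

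**Figure D2:**
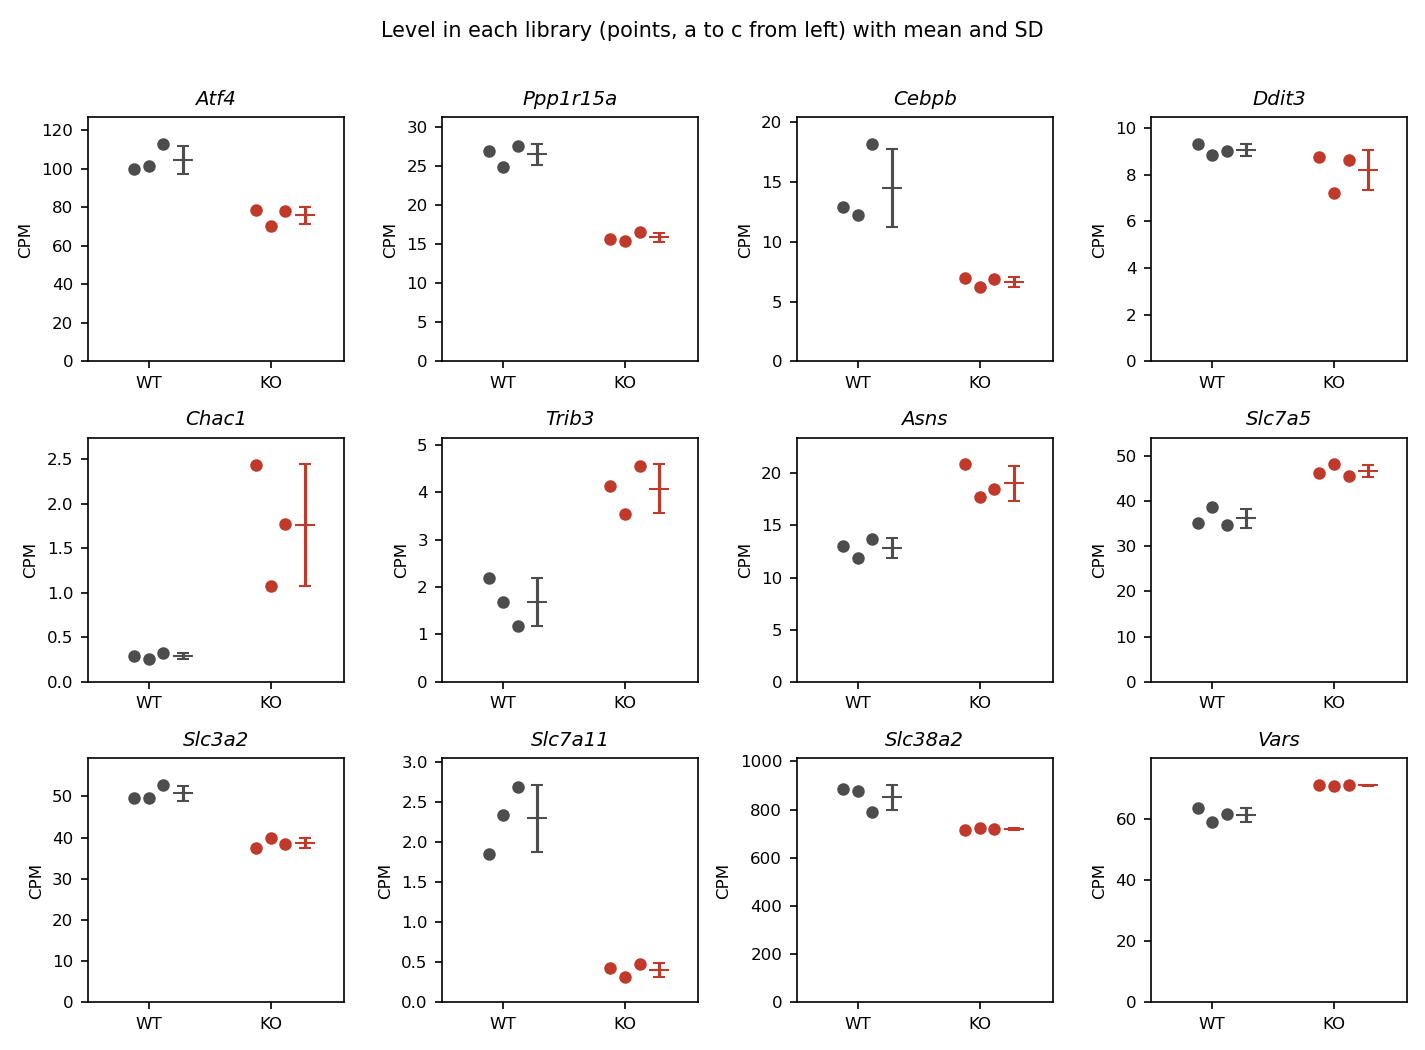
Level in CPM (vertical axis, from 0) of 12 members in each WT and KO library (points) with the mean and SD of 3 libraries (bars). The genotypes do not overlap in any of the 12 panels, but for *Ddit3* the gap is small and the gene was not called. All the other panels show called genes. Over the 42 members, 21 had no overlap, beside 42.4% of all genes. *Chac1* and *Slc7a11* lie near the bottom of the measurable range in one genotype each.

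Among the amino acid genes, 4 were higher in KO hearts (*Asns*, *Slc7a5*, *Slc1a5* and *Aldh18a1*), 3 were lower (*Slc7a11*, *Slc38a2* and *Slc3a2*) and 4 were not called, beside 14.6% of all genes higher and 15.7% lower. The median log2 fold change was 0.02. The higher genes were 2 transporters and 2 synthesis enzymes, and the lower genes were all transporters or a transporter subunit. The summed level was 1111 to 1210 CPM in WT and 1062 to 1073 CPM in KO, with most of the counts from *Slc38a2*. The counts of 4 and 3 were the same without WT library c.

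*Slc7a11* (chr3:49892526-50443614, minus strand) encodes xCT, which imports cystine in exchange for glutamate and feeds glutathione synthesis. It stood at 1.85, 2.35 and 2.69 CPM in WT and 0.424, 0.316 and 0.483 CPM in KO, from 32, 46 and 41 counts and from 8, 5 and 9 counts. All KO libraries were well below all WT libraries. The log2 fold change was -2.45 (SE 0.317, edgeR adjusted p = 1.14e-06), with a WT mean 5.64-fold above the KO mean. *Slc3a2* (chr19:8706882-8723369, minus strand) encodes CD98, the heavy chain that carries both xCT and the leucine transporter LAT1 to the cell surface. Its level was 49.7, 49.6 and 52.8 CPM in WT and 37.6, 39.9 and 38.5 CPM in KO. The groups were separate, with a log2 fold change of -0.39 (SE 0.0548, edgeR adjusted p = 4.03e-06). *Slc7a5* (chr8:121881150-121907694, minus strand) encodes LAT1, the light chain that takes up leucine and other large neutral amino acids. It went the other way, at 35.0, 38.6 and 34.8 CPM in WT and 46.2, 48.1 and 45.5 CPM in KO. Its log2 fold change was 0.36 (SE 0.0581, edgeR adjusted p = 2.70e-05). The mRNAs of the heavy chain and of xCT were thus lower while that of LAT1 was higher. Of the heavy chain's other light chains tested, *Slc7a6* (0.06), *Slc7a7* (-0.09) and *Slc7a8* (-0.05) were not called.

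*Slc38a2* encodes SNAT2, a sodium-coupled carrier of small neutral amino acids that responds to amino acid shortage. Its level was 884, 879 and 791 CPM in WT and 716, 724 and 721 CPM in KO. The KO libraries were close together and below WT library c, the lowest of the WT libraries, and the log2 fold change was -0.24 (SE 0.0318, edgeR adjusted p = 1.49e-06). *Slc1a5* encodes ASCT2, which exchanges glutamine and other neutral amino acids, and was higher by a log2 fold change of 0.27 (edgeR adjusted p = 2.06e-04). *Slc7a1*, the arginine and lysine carrier CAT1, was not called (log2 fold change -0.02, 95% confidence interval -0.10 to 0.07).

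*Asns* (chr6:7675169-7693254, minus strand) encodes asparagine synthetase, a target of ATF4 used widely as a readout of the response. Its level was 13.0, 11.8 and 13.7 CPM in WT and 20.9, 17.7 and 18.5 CPM in KO. The lowest KO library was above the highest WT library, and the log2 fold change was 0.57 (SE 0.0891, edgeR adjusted p = 1.72e-05), or 1.48-fold. *Aldh18a1*, the first enzyme of proline synthesis from glutamate, was higher by a log2 fold change of 0.26 (edgeR adjusted p = 2.71e-04). *Pycr1*, the enzyme of the last step of that pathway in mitochondria, had a log2 fold change of 0.10 (95% confidence interval -0.24 to 0.44) and was not called. *Pck2*, the mitochondrial phosphoenolpyruvate carboxykinase, had 0.02 (95% confidence interval -0.12 to 0.16). *Cth*, which makes cysteine from cystathionine, had -0.11 with an interval of -0.96 to 0.74, from 7 to 20 counts a library, and a difference was not detectable at this depth.

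The cytosolic aminoacyl-tRNA synthetases, which load amino acids onto their tRNAs, changed little. In KO hearts 4 of the 20 were higher (*Vars*, *Iars*, *Cars* and *Dars*), 0 were lower and 16 were not called, beside 14.6% of all genes higher. Their log2 fold changes ran from -0.09 to 0.21, and none reached 1.5-fold. At an unadjusted p under 0.05, 6 were higher and 1 was lower, and every alternative called 0 lower. The median was 0.08, with 15 genes above 0 and 5 below. The summed level was 1461 to 1472 CPM in the WT libraries and 1511 to 1527 CPM in the KO libraries, so the sums did not overlap. Over all genes tested the sums did not overlap either, at 1011228 to 1024777 CPM in WT and 983091 to 984341 CPM in KO. Gene by gene, 7 of the 20 (35.0%) had no overlap, beside 42.4% of all genes. The count of 4 higher genes depended on single libraries: it was 1 without KO library c and 5 without WT library c.

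*Vars* (chr17:35000987-35016322, plus strand), the valine enzyme, stood at 63.7, 59.2 and 61.6 CPM in WT and 71.3, 71.0 and 71.1 CPM in KO. The KO libraries were nearly level and above all WT libraries, with a log2 fold change of 0.21 (SE 0.0470, edgeR adjusted p = 0.00112). It was the one synthetase whose call held in every alternative. *Iars*, the isoleucine enzyme, stood at 120, 124 and 124 CPM in WT and 131, 134 and 136 CPM in KO. The groups were separate, with a log2 fold change of 0.12 (SE 0.0374, edgeR adjusted p = 0.0139). Its adjusted p was 0.0600 without WT library a and 0.0677 without KO library c. The change in *Iars* was thus small and at the edge of what these libraries resolve. *Cars*, the cysteine enzyme, stood at 27.1, 24.9 and 27.1 CPM in WT and 29.7, 30.2 and 31.3 CPM in KO. Again all KO libraries were higher, with a log2 fold change of 0.21 (SE 0.0651, edgeR adjusted p = 0.0149). The call was lost without WT library b (adjusted p = 0.102), without KO library c (0.0689) and with DESeq2 (0.0536).

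*Dars*, the aspartate enzyme, stood at 60.2, 62.4 and 55.9 CPM in WT and 62.2, 72.7 and 67.4 CPM in KO. Here the groups overlapped, as KO library a lay just below WT library b. The log2 fold change was 0.17 (SE 0.0560, edgeR adjusted p = 0.0192), and the adjusted p was 0.158 without KO library b and 0.0632 without KO library c. *Yars*, the tyrosine enzyme, stood at 40.3, 39.7 and 44.2 CPM in WT and 45.9, 45.8 and 44.3 CPM in KO. KO library c and WT library c were nearly level, and the gene was not called (log2 fold change 0.13, edgeR adjusted p = 0.0744). Without WT library c its adjusted p was 0.0136 and with upper-quartile scaling 0.0434, while the other 13 alternatives did not call it, up to 0.271 without WT library b.

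The other 15 synthetases were not called. *Kars*, the lysine enzyme, had the lowest log2 fold change (-0.09, edgeR adjusted p = 0.109) and *Farsa*, a subunit of the phenylalanine enzyme, the highest of them (0.15, edgeR adjusted p = 0.102). The narrowest of these intervals was that of *Eprs*, the joined glutamate and proline enzyme, at -0.10 to 0.03. *Aars*, the alanine enzyme, had a WT mean of 92.0 ± 0.617 CPM and a KO mean of 92.1 ± 2.33 CPM (SD, n = 3), with a core in its promoter. *Aars* shares 1326 exon bases with *Exosc6* on the same strand, so its count is uncertain. Of the 8 synthetase genes of the multisynthetase complex, a group chosen after the values were seen, 2 were higher (*Iars* and *Dars*) with a median of 0.04. Of the other 12, 2 were higher (*Vars* and *Cars*) with a median of 0.08. Both counts stand beside 14.6% of all genes higher.

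**Figure D3:**
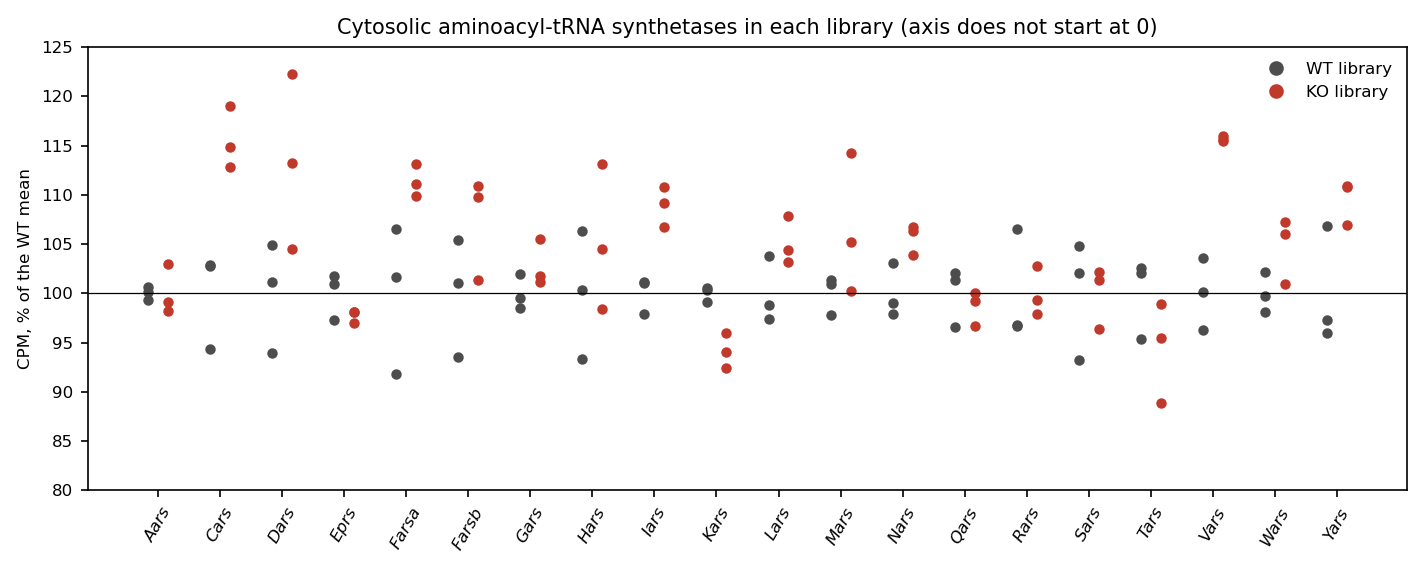
CPM of the 20 cytosolic aminoacyl-tRNA synthetases in each WT and KO library as a percentage of the gene's WT mean (vertical axis, which does not start at 0). For *Vars*, *Iars* and *Cars* the 3 KO points lie above the 3 WT points. The same holds for *Farsa*, *Nars* and *Yars*, which were not called. For *Dars* the points overlap, and *Kars* has KO points below its WT points.

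Upstream of ATF4, the list held 11 genes of the eIF2 kinases, of eIF2 and of its exchange factor eIF2B, and 4 regulators (*Gcn1l1*, *Impact*, *Dnajc3* and *Nck1*). Of the 15, 1 was higher, 3 were lower and 11 were not called (median -0.02), beside 14.6% of all genes higher and 15.7% lower. The 3 lower genes were kinases of eIF2. *Eif2ak2* (PKR, which senses double-stranded RNA) had a log2 fold change of -0.46 (edgeR adjusted p = 3.09e-07). *Eif2ak1* (HRI, which senses haem and mitochondrial stress) had -0.41 (edgeR adjusted p = 4.76e-06). *Eif2ak3* (PERK, which senses unfolded protein in the ER) had -0.39 (edgeR adjusted p = 9.38e-05). In each of the 3 the WT and KO libraries did not overlap, which held for 7 of the 15 genes, beside 42.4% of all genes. The higher gene was *Gcn1l1* (0.15, edgeR adjusted p = 0.00297), whose product activates GCN2. The kinase GCN2 itself, *Eif2ak4*, was not called (-0.12, edgeR adjusted p = 0.102), though its WT and KO libraries did not overlap either. The list left out the third eIF2 subunit, whose genes are sex-linked. *Eif2s3x*, on X, was higher in KO (0.67, edgeR adjusted p = 6.50e-12), and its Y-linked copy *Eif2s3y* had 0 counts in all KO libraries, so for this subunit genotype and sex cannot be told apart. Kinase mRNA levels do not measure phosphorylation of eIF2, which these data do not hold.

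A further list held 31 ATF4 targets and paralogues of targets, of which 29 were in the table, and 9 of these were higher, 8 were lower and 12 were not called (median -0.06). Without 5 paralogues not established as targets (*Sesn1*, *Sesn3*, *Trib1*, *Trib2* and *Eif4ebp2*), 9 of 24 were higher and 5 were lower, with a median of 0.00, a split made after the values were seen. Both counts stand beside 14.6% of all genes higher and 15.7% lower. The 4 genes of the whole list with the smallest adjusted p were *Atf3* (-3.12, edgeR adjusted p = 6.43e-21), *Cebpd* (-1.18, 9.64e-10), *Vldlr* (0.31, 1.65e-08) and *Sesn1* (-0.41, 2.41e-07). *Atf3* also belongs to the immediate early genes, which cells switch on within minutes of a stimulus, and all 18 of these were lower in KO (median -1.66). Their summed level was 1437 to 1546 CPM in WT and 453 to 458 CPM in KO. Their part in the lower *Atf4*, *Cebpb* and *Ppp1r15a* was not tested. The genes of serine synthesis and mitochondrial one-carbon metabolism were looked at after their values were seen. *Phgdh* (0.36, edgeR adjusted p = 0.00432), *Mthfd1l* (0.44, 1.80e-04), *Aldh1l2* (0.26, 2.59e-04), *Shmt2* (0.14, 0.0119) and *Mthfd2* (0.24, 0.00975) were higher, while *Psat1* (-0.14, 0.0571) and *Psph* (0.16, 0.388) were not called. *Shmt2* lost its call without WT library b or without KO library c, and *Mthfd2* without KO library b, with adjusted p up to 0.116 and 0.0565.

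Among 20 other amino acid transporters, 7 were higher, 2 were lower and 11 were not called (median -0.04). For this list and the next, the shares of all genes were 14.6% higher and 15.7% lower. The 4 transporters with the smallest adjusted p were *Slc43a3* (-0.43, edgeR adjusted p = 1.42e-07), *Slc38a1* (0.25, 1.19e-06), *Slc16a10* (0.43, 6.49e-06) and *Slc38a7* (0.64, 1.50e-05). *Slc38a1* encodes SNAT1, a relative of SNAT2, and was higher where *Slc38a2* was lower. The other *Slc38* genes of the list were higher (*Slc38a7* and *Slc38a9*), lower (*Slc38a10*) or not called (*Slc38a3*, *Slc38a4* and *Slc38a6*). Among 15 other enzymes of amino acid synthesis and interconversion in the table, 0 were higher and 4 were lower (median -0.08) by edgeR. At an unadjusted p under 0.05, 1 was higher, and the other tools and settings called 0 or 1. The lower ones were *Glul* (glutamine synthetase, -0.29, edgeR adjusted p = 4.95e-06), *Oat* (-0.20, 1.40e-04), *Got2* (-0.12, 0.00107) and *Aldh4a1* (-0.22, 0.00446). *Aldh4a1* and *Oat* act on glutamate semialdehyde, the product of *Aldh18a1*, which was higher.

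The mitochondrial aminoacyl-tRNA synthetases are encoded by nuclear genes and charge the tRNAs of the organelle. Of 17 tested, 2 were higher and 0 lower by edgeR (7 and 0 at an unadjusted p under 0.05, and 0 lower in every alternative), beside 14.6% of all genes higher. In 15 the log2 fold change was above 0, beside 50.4% of all genes, and the median was 0.13. The count of higher genes rose to 5 with upper-quartile scaling, under which *Aars2*, *Vars2* and *Yars2* also passed. *Rars2* had 0.22 (edgeR adjusted p = 0.0131) and *Hars2* 0.23 (edgeR adjusted p = 0.0138). The calls were lost without KO library b for *Rars2* (0.0539) and without WT library a for *Hars2* (0.0857). *Hars2* shares 195 exon bases with the member *Hars* on the opposite strand. The 3 scaffolds of the multisynthetase complex were not called, and none passed an unadjusted p of 0.05 (median 0.04).

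**Figure D4:**
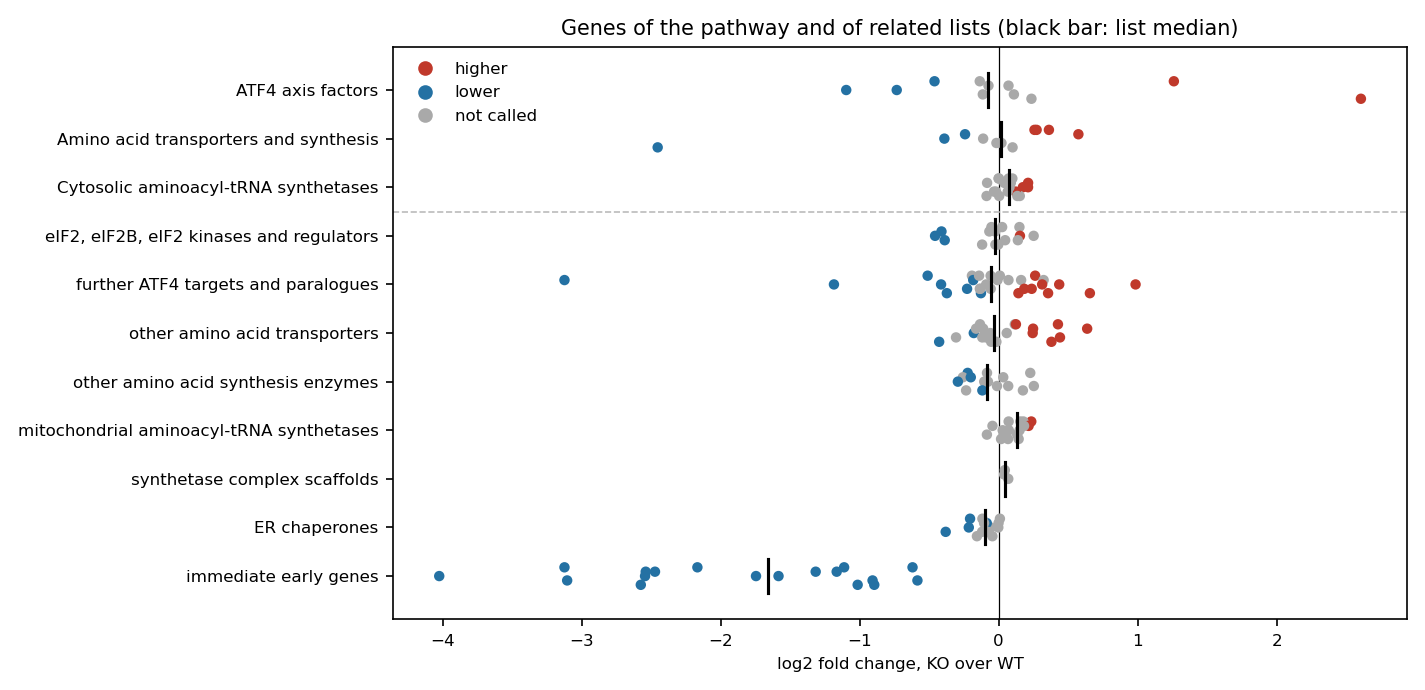
Log2 fold change (KO over WT, horizontal axis) of each gene of the 3 member groups (above the dashed line) and of 8 related lists (below it), with the list median as a black bar and the test's call as colour. The immediate early genes lie wholly below 0 (18 of 18 lower), the 2 sets of synthetases lie in a narrow range around a median just above 0, and the ATF4 lists spread to both sides.

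Some markers of cell types also differed between the genotypes, beside 14.6% of all genes higher and 15.7% lower. With so few markers of each type, nothing is read from the distance of these counts to those shares. The 6 cardiomyocyte markers were all lower (summed level 108731 to 111609 CPM in WT and 100562 to 101599 CPM in KO), and 3 of 6 atrial markers were higher (595 to 601 and 1006 to 1030 CPM). Endothelial markers were lower in 2 of 5 genes (975 to 977 and 910 to 921 CPM) and fibroblast markers in 2 of 5 (2623 to 2626 and 2409 to 2458 CPM). Epicardial markers were higher in 2 of 4 (61.4 to 64.6 and 73.2 to 79.5 CPM). Of 6 erythroid markers, 2 were in the table and 1 was higher (27.2 to 28.0 and 31.0 to 37.5 CPM), and 1 of 5 immune markers was lower (31.3 to 33.6 and 29.3 to 37.1 CPM). No marker in the table was at 0 in all libraries. The part of cell makeup in the changes of the 42 genes was not tested.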

How the data were processed

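RNA-seq was done on rRNA-depleted total heart RNA in 3 WT and 3 *Pkm1*-KO libraries. The authors trimmed reads with cutadapt 1.18, aligned them with HISAT2, assembled transcripts with StringTie on mm10, and deposited raw counts per gene symbol. The counting program and its strand setting are not given in the sources used here. The same table holds the authors' edgeR comparison (log2 fold changes, average expression in log2 CPM, p-values and FDR), which was not used. Columns were assigned to a genotype by name. They carry no replicate number.

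The counts were tested with edgeR 4.0.16 under R 4.3.3. The filterByExpr function chose the genes (13804 tested, 5 left out; the lowest total of any gene over the 6 libraries was 59), TMM scaled the libraries, and genotype alone entered the two-sided quasi-likelihood test. Benjamini-Hochberg adjustment ran over all genes tested, and a gene was called at an adjusted p under 0.05. CPM are scaled by TMM, folds quoted without log2 are ratios of mean CPM, and CPM compare libraries, not genes of different length. Replicates are described as biological by the authors. No pair of libraries agreed within sampling noise by a chi-square test of counts, where the statistic per degree of freedom was 1.556 to 3.746. In simulated counts, 170 of 200 genes changed 1.5-fold among 13803 genes were recovered, 0 in the wrong direction, with 7 false calls. The simulation took the spread of each gene from the fitted trend alone. Its rates do not carry over to smaller changes, such as those of the synthetases, or to a table with 4179 called genes. Promoter windows were RefSeq's (GRCm38.p6), and 13299 symbols matched the GENCODE annotation of GRCm38 directly, 492 through RefSeq, and 18 did not.

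Values in every library are given for the 5 members of each group with the smallest adjusted p and for *Atf4*, *Ddit3*, *Asns* and *Chac1*. In related lists, up to 4 called genes with the smallest adjusted p are named. Some other names are marked as chosen later. Further names fall outside this rule without a mark, such as *Slc7a6*, *Slc7a7*, *Slc7a8*, *Eif2ak4*, *Aars2*, *Vars2* and *Yars2*. The members and lists were chosen with earlier results of these data known. Alternatives were RLE and upper-quartile scaling, DESeq2 1.42.0, edgeR's exact test, voom of limma 3.58.1, no filter, a minimum of 10 counts in each library, leaving out X and Y, each library left out in turn, and the closest pair of libraries summed. Figures were drawn with matplotlib 3.10.9.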

Additional observations from a re-analysis of the deposited data

How the results depend on the processing

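Of the 16 called genes, 13 kept their direction and call in every one of the 15 alternatives in which they were tested, and none reversed. The exceptions were *Cars*, *Dars* and *Iars*, whose values are given above. Requiring at least 10 counts in every library removed *Chac1* and *Slc7a11* from the test, which left 1 ATF4 axis factor higher. Leaving out each library in turn gave 1 to 5 synthetases higher, 1 of them without KO library c. DESeq2 called fewer genes in the whole table (1363 higher and 1639 lower, against 2011 and 2168). Upper-quartile scaling moved the median of all genes to 0.0204 (log2) and called 2301 higher and 1877 lower.

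Of the 26 genes not called, 7 changed sign in some alternative, *Cth* over a wide range and the other 6 closer to 0. With upper-quartile scaling *Slc7a1* was 0.00271 and *Sars* 0.0181. *Sars* was 0.000553 with voom and 0.00145 under the minimum of 10 counts, and *Rars* was -0.0130 with the closest pair summed. With single libraries left out, log2 fold changes ran from -0.136 to 0.0183 for *Eif4ebp1*, -0.0367 to 0.00618 for *Slc7a1*, -0.0279 to 0.0499 for *Pck2*, -0.652 to 0.230 for *Cth* (0.150 without KO library a and 0.0350 without KO library b), -0.0195 to 0.0159 for *Aars* (-0.00438 without WT library c), -0.0223 to 0.0477 for *Rars* (-0.0201 without WT library a and -0.0169 without KO library c) and -0.0497 to 0.0294 for *Sars* (0.0134 without WT library b and 0.0258 without KO library c). The cause was not tested. No paired analysis was possible because no column name tells which replicate it holds. Low counts limit *Chac1*, *Slc7a11*, *Trib3* and *Cth*, and 3 libraries per genotype limit the synthetases, whose changes were small. Genotype and sex stay confounded in every setting, since leaving out X and Y genes does not separate them.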

Other observations

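The integrated stress response shares the kinase PERK with the unfolded protein response of the ER, and 14 ER chaperones and related factors were therefore set beside the members. In KO hearts 0 were higher and 4 were lower by the quasi-likelihood test of edgeR (Benjamini-Hochberg adjusted), and the median log2 fold change was -0.10. Of all genes, 14.6% were higher and 15.7% lower. At an unadjusted p under 0.05, 0 were higher and 7 lower. Every alternative called 0 higher, and the count of lower genes ran from 3 to 6 over the settings. *Hspa5*, the chaperone BiP, had a log2 fold change of -0.21 (edgeR adjusted p = 3.54e-06), and *Xbp1*, the factor spliced by IRE1, had -0.38 (edgeR adjusted p = 4.67e-06). The calreticulin gene *Calr* had -0.21 (edgeR adjusted p = 1.50e-04). *Hsp90b1* had -0.09 (edgeR adjusted p = 0.0180) and lost its call with upper-quartile scaling and without WT library b or KO library b. The summed level of the 14 genes was 2407 to 2442 CPM in WT and 2211 to 2269 CPM in KO. The mRNA counts do not give *Xbp1* splicing.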
